A study of Mus musculus with 4 samples.

Results

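The complement genes described here are 36 listed components, receptors and regulators of the complement system, read by symbol from the count tables of RNA of CD24+ mouse liver cells. All 36 have a row in the tables, which hold 21878 rows, and 34 passed the rule of 10 or more raw counts in at least 2 libraries. The same 34 were among the 13428 genes tested. The rule lists the members by name and uses no fold change.

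The cells came from livers of C57BL/6 mice, were taken by magnetic sorting (MACS) of cells bearing CD24 at the surface, and are labelled both as hepatocytes and as liver progenitor cells. In the HACY group (2 libraries), mice were injected intraperitoneally 3 times a week for 6 weeks with Y-27632, A-83-01 and CHIR99021, which inhibit ROCK, the type I receptors of TGF-beta and GSK3. In the CCL4 group (2 libraries), the liver toxin carbon tetrachloride was injected, dissolved in olive oil, for 6 weeks at 2 doses a week of 2 ml/kg. The treatment protocol gives an age of 8 weeks and a sample label 6 to 8 weeks. The labels do not make clear whether HACY mice also received carbon tetrachloride, and neither group is untreated. A value higher in HACY is therefore higher relative to CCL4 only. The labels name no separate animals for the replicates, so the p-values measure the spread between these libraries, which may be technical. In bulk RNA of a sorted fraction, fewer cells of a type and less RNA per cell cannot be told apart.

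Complement is a set of plasma proteases, opsonins and pore-forming proteins that mark microbes, immune complexes and dying cells. The classical pathway starts with C1q bound to antibody or debris, the lectin pathway with collectins and ficolins bound to sugars, and the alternative pathway with C3 itself. All of them cut C3, and a C5 convertase then starts the terminal pathway that assembles the membrane attack complex. The liver is the main source of the plasma components: hepatocytes secrete most of them, while resident macrophages (Kupffer cells) make C1q, properdin and the receptors that take up C3-coated particles.

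Sequences around the start sites are shown here for 7 of the members: 2 chains of C1q, which macrophages make, 4 liver components that were called higher below, and Mbl2, which was not. They run from 250 bases before to 50 bases after the start (RefSeq, GRCm38.p6), 5′ to 3′ on the gene's strand. Capitals mark matches, on either strand, to letters searched for their known part in myeloid or liver genes: GAGGAA (PU.1), TTGCNNAA (C/EBP), TTCNNNGAA (STAT), GTTAAT (letters common in promoters of liver genes), GAAANNGAA (interferon response) and GGGANTTTC (NF-kappaB).

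C1qb (chr4:136886151-136886450, minus strand): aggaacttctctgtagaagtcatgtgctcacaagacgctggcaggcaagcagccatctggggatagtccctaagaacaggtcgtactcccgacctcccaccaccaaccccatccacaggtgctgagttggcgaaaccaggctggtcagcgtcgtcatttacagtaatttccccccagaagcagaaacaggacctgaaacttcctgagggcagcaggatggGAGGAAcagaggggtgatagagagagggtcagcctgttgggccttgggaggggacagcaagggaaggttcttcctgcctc

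C1qc (chr4:136892865-136893164, minus strand): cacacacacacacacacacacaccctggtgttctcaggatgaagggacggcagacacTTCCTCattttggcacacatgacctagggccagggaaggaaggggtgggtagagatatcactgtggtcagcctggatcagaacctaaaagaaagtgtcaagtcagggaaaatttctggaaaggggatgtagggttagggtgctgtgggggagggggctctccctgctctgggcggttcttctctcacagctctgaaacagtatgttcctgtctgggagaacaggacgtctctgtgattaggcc

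C3 (chr17:57228087-57228386, minus strand): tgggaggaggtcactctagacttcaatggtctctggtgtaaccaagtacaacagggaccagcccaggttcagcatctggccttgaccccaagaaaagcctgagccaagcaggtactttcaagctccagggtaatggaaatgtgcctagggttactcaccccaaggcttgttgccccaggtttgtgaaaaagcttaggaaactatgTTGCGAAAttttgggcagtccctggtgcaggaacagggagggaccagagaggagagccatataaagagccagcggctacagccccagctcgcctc

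C8a (chr4:104876349-104876648, minus strand): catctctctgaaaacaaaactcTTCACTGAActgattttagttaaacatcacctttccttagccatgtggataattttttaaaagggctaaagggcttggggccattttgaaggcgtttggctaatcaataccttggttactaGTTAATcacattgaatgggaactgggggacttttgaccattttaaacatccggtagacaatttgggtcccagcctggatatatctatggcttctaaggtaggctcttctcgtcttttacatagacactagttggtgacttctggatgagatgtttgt

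C9 (chr15:6445096-6445395, plus strand): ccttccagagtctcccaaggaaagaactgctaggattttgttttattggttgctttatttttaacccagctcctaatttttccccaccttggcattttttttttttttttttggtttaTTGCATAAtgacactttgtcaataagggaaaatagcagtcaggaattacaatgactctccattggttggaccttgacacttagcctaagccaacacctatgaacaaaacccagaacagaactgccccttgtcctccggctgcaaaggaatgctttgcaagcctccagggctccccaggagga

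Hc (chr2:35061363-35061662, minus strand): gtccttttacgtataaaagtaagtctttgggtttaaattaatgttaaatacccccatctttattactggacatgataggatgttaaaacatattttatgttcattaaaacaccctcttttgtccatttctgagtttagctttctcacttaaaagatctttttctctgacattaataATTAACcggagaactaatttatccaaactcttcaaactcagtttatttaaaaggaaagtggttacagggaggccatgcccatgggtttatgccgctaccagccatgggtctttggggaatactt

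Mbl2 (chr19:30232678-30232977, plus strand): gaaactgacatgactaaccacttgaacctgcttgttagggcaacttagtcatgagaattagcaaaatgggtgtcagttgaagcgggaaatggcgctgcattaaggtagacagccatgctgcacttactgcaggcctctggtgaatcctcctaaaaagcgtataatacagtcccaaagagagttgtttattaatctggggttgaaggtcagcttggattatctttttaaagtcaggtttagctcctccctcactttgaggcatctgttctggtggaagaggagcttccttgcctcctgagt

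Of the 36 members, 29 matched a RefSeq start by symbol. C1qa, C2, C4b, Cfb, Cfi, Clu and Masp1 were not among them. GAGGAA lay in 5 of the 8 promoters of myeloid-made members (C1qb, C1qc, Cfp, Fcna and Vsig4) and in 1 of the 15 of hepatocyte-made members, against 28.3% of 27025 promoters of all genes. GTTAAT lay in 6 of 15 hepatocyte-made members' promoters (C1ra, C4bp, C8a, C8b, Hc and Vtn) and in 1 of 8 myeloid-made ones, against 7.2% of all. TTCNNNGAA was found in 5 of 15 hepatocyte-made members (C1ra, C8a, Colec11, Masp2 and Vtn), against 8.47% of all promoters. TTGCNNAA was found in 4 of 15 (C1ra, C1s1, C3 and C9), against 10.8%. Of these, C1s1, Colec11 and Masp2 were not called below, so matches were not limited to called members. Among the 8 myeloid-made members, TTCNNNGAA was found in 0 and TTGCNNAA in 1. GAAANNGAA was found in 2 of 15 hepatocyte-made and 1 of 8 myeloid-made members, against 8.57% of all promoters. Over all 29 members, GAAANNGAA was found in 6, GAGGAA in 7 and GGGANTTTC in 0, the last against 1.15% of all promoters. TTCNNNGAA and GAAANNGAA share letters and can overlap, though they did not in the sequences shown. A match is a run of letters and not a binding site, and no binding was measured here.

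Most of the complement genes were higher in HACY and none was called lower. Of the 34 tested, 25 passed an edgeR adjusted p of 0.05 as higher in HACY, while 8.19% of all 13428 genes tested did so. None passed as lower, against 3.54% of all genes, and a count of 0 among 34 cannot be told from that share. At an unadjusted p below 0.05, 0 members were lower, and 0 were lower by DESeq2. Both HACY libraries lay above both CCL4 libraries for 31 of the 34, against 30.7% of all genes tested, and below them for 0, against 30.1%. The median log2 fold change was 1.38, against -0.01 over all genes, and single members ran from -0.22 (Cd46) to 2.74 (C6). Of the 25 calls, 16 held under all 16 alternative settings tried. Where a setting or a left-out library is named below, the bracketed value after it is the adjusted p found there.

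**Figure D1:**
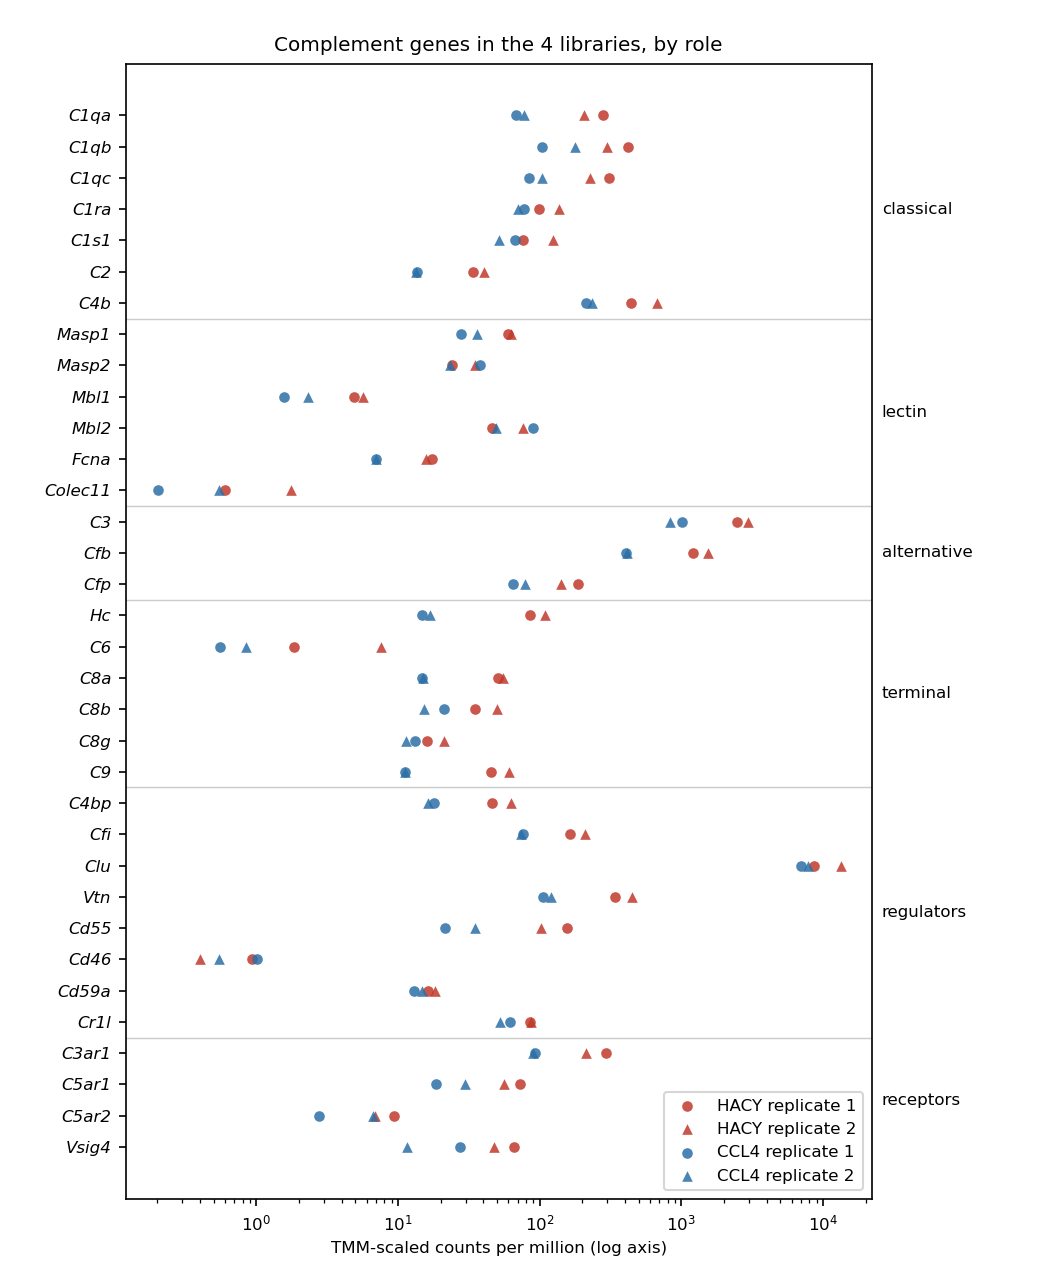
Each row is 1 of the 34 tested complement genes, grouped by role, and each point is 1 library (HACY replicates in red, CCL4 replicates in blue) on a log axis of CPM. The red points lie to the right of the blue ones for 31 genes, and the groups mix for Masp2, Mbl2 and Cd46.

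The totals behind these values were 19151738 and 18985478 counts in HACY replicates 1 and 2, and 18467299 and 19314219 in CCL4 replicates 1 and 2. Levels below are CPM, counts relative to the TMM-scaled library size, unless FPKM, which also divides by transcript length, is named. By mean FPKM the most abundant members in HACY were Clu (3261 ± 959), Cfb (303 ± 48), C1qb (295 ± 77.4) and C3 (274 ± 31.4; SD, n = 2 each), and the same genes led in CCL4 (Clu 2432 ± 216, C1qb 123 ± 43.7, C3 98.9 ± 13.4 and Cfb 97.7 ± 0.742). The listed hepatocyte markers summed to 33936 and 43080.3 CPM in HACY and to 12083 and 10910.2 in CCL4. Macrophage and Kupffer cell markers summed to 3379 and 2388 CPM in HACY and 982 and 1376 in CCL4, so macrophage RNA was present in all 4 libraries. Cd24a, the gene of the sorted protein, had 21.9 and 19.4 CPM in HACY and 20.7 and 38 in CCL4. T and NK cell markers summed to 1.04 and 1.65 CPM in HACY and to 0.101 and 0.69 in CCL4, and none of them passed the count filter. Neutrophil markers summed to 22 and 27 CPM in HACY, and to 20.5 and 199 in CCL4, where replicate 2 stood apart. Cholangiocyte markers had 0 of 7 called, stellate cell and fibroblast markers 0 of 8, erythroid markers 0 of 3, B cell markers 1 of 6 higher, neutrophil markers 1 of 7 lower, and sinusoidal endothelium markers 3 of 7 higher and 1 lower. These lists were read from the same edgeR fit, in which 8.19% of all genes tested were called higher and 3.54% lower. In lists this short, counts of 0 or 1 cannot be told from those shares.

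In the classical pathway 6 of 7 members were called higher in HACY, and the groups did not overlap for any of the 7. Over all genes tested, 8.19% were called higher and 30.7% had both HACY libraries above both CCL4 libraries. These shares stand beside each later count by role or source. C1q is built of A, B and C chains, whose genes lie side by side on chromosome 4 (C1qb at 136880129 to 136886187, C1qc at 136889804 to 136893065 and C1qa at 136895917 to 136898803, GRCm38). C1qa had 280.3 and 207 CPM in HACY replicates 1 and 2, against 67.6 and 77.2 CPM in CCL4 replicates 1 and 2 (log2 fold change 1.75, SE 0.17, edgeR adjusted p = 0.0022). C1qb had 422 and 299 CPM in HACY, against 104 and 178 in CCL4 (log2 fold change 1.35, SE 0.27, edgeR adjusted p = 0.0238). C1qc had 309 and 226 CPM in HACY, against 83.6 and 104 in CCL4 (log2 fold change 1.51, SE 0.19, edgeR adjusted p = 0.00428). For all of these chains HACY replicate 1 was the highest library and CCL4 replicate 1 the lowest, and the groups did not overlap. By FPKM C1qb exceeded C1qa in each library. The ratio of C1qa to C1qb was 0.582 and 0.608 in HACY and 0.581 and 0.392 in CCL4, where replicate 2 held relatively more C1qb. C1qb did not pass without HACY replicate 1 (adjusted p = 0.102) or with limma on log2(FPKM + 1) (0.0554).

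The proteases that C1q carries had smaller log2 fold changes than the C1q chains, and whether these differ was not tested. C1ra, the gene of C1r, had 99.3 and 137 CPM in HACY, against 77.5 and 69.7 in CCL4 (log2 fold change 0.68, SE 0.17, edgeR adjusted p = 0.0482). Its neighbour C1s1, the gene of C1s, 6901 bases away on chromosome 6, had 76.2 and 125 CPM in HACY, against 67.5 and 51.8 in CCL4 (log2 fold change 0.75, SE 0.25, edgeR adjusted p = 0.0945; 95% interval 0.17 to 1.34). In both genes HACY replicate 2 was clearly the highest library, and HACY replicate 1 lay just above the CCL4 libraries. C1ra did not pass without HACY replicate 2 (0.43, adjusted p = 0.35), without CCL4 replicate 1 (0.0683) or CCL4 replicate 2 (0.0735), and with upper-quartile scaling (0.065), library size alone (0.077), limma-voom (0.0619), the stricter count filter (0.0526) or FPKM (0.0826 and 0.0751 with pseudocounts of 1 and 0.1). C1s1 passed with DESeq2 (0.0171) and without HACY replicate 1 (0.0142).

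C4 and C2, the substrates that form the C3 convertase of the classical and lectin pathways, were called in every alternative tried. C4b had 440.5 and 674 CPM in HACY, against 213 and 236 in CCL4 (log2 fold change 1.31, SE 0.20, edgeR adjusted p = 0.00945). C2 had 33.6 and 40.3 CPM in HACY, against 13.6 and 13.4 in CCL4 (log2 fold change 1.46, SE 0.18, edgeR adjusted p = 0.00434). For C2 the CCL4 libraries were almost equal, and both HACY libraries held more than 2 times as much. C4b has a close paralog, C4a, and reads could be split between them. C4a had 5.63 and 9.25 CPM in HACY and 4.3 and 6.01 in CCL4.

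In the lectin pathway 3 of 6 members were called, the lowest share of the pathways here. Lists this short cannot tell such shares apart, and no difference between pathways was tested. Masp1, a protease that starts the pathway, had 60.2 and 63.1 CPM in HACY, against 27.9 and 36.2 in CCL4 (log2 fold change 0.94, SE 0.17, edgeR adjusted p = 0.0167). Fcna, ficolin A, a sugar-binding protein of mouse macrophages, had 17.4 and 15.7 CPM in HACY, against 7.03 and 7 in CCL4 (log2 fold change 1.24, SE 0.22, edgeR adjusted p = 0.0148). Mbl1, one of the mannose-binding lectins of mouse plasma, had 4.92 and 5.62 CPM in HACY, against 1.57 and 2.32 in CCL4 (log2 fold change 1.44, SE 0.36, edgeR adjusted p = 0.0452). In these genes the groups stood apart, but each call was lost without at least one HACY library. Without HACY replicate 2 the adjusted p-values were 0.0642 for Masp1, 0.0505 for Fcna and 0.233 for Mbl1, and without HACY replicate 1 they were 0.108 for Fcna and 0.167 for Mbl1. Mbl1 also lost its call without CCL4 replicate 1 (0.0801), by library size alone (0.0506), with upper-quartile scaling (0.055) and on log2(FPKM + 0.1) (0.0526), and its value on log2(FPKM + 1) was 0.71. Masp1 lost its call on both FPKM scales (0.0698 and 0.0651).

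The other lectin members did not pass. Mbl2, the second mannose-binding lectin and the more abundant, had 46.1 and 76.8 CPM in HACY, against 89.5 and 49.3 in CCL4 (log2 fold change -0.18, SE 0.32, edgeR adjusted p = 0.762; 95% interval -0.94 to 0.59). The highest of the Mbl2 values was CCL4 replicate 1 and the lowest HACY replicate 1. Masp2, the protease that cuts C4 and C2, had 24.2 and 35.2 CPM in HACY, against 37.7 and 23.4 in CCL4 (log2 fold change -0.04, SE 0.28, edgeR adjusted p = 0.941; 95% interval -0.69 to 0.61), with its highest and lowest values both in CCL4. Masp2 shares exon bases with Tardbp on the opposite strand, and how strand was used in counting is not given in the sources used here. Its count is therefore uncertain. By FPKM, Mbl2 exceeded Mbl1 by 17.1 and 26 times in HACY and by 101 and 36.8 times in CCL4. Whether the log2 fold changes of Mbl1 and Mbl2 differ was not tested. Colec11, a collectin, was near the limit of detection at 11 and 31 counts in HACY and 4 and 11 in CCL4 (log2 fold change 1.64, SE 0.74, edgeR adjusted p = 0.189; 95% interval -0.11 to 3.38).

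C3, on which all pathways converge, and factor B, which joins it in the alternative pathway, were among the most abundant members. C3 (chromosome 17, 57203970 to 57228136, GRCm38) had 2473 and 2972 CPM in HACY, against 1008 and 836 in CCL4 (log2 fold change 1.56, SE 0.15, edgeR adjusted p = 0.00219), a 2.95-fold difference. Cfb (chromosome 17, 34856374 to 34862518), the protease of the alternative pathway convertase, had 1205 and 1539 CPM in HACY, against 409 and 414 in CCL4 (log2 fold change 1.74, SE 0.15, edgeR adjusted p = 0.00163), 3.34-fold. Each HACY library held more than 2 times each CCL4 library in both genes, and the CCL4 values of Cfb were almost equal. On the minus strand, C2 ends 85 bases before the start of Cfb, and an annotated readthrough gene shares exons with both, so reads near the junction are uncertain. By FPKM the ratio of C2 to Cfb was 0.0321 and 0.0303 in HACY and 0.0348 and 0.0364 in CCL4, and that of Cfb to C3 was 1.07 and 1.14 in HACY and 0.906 and 1.09 in CCL4. Cfp, properdin, which stabilises the alternative convertase and is made by myeloid cells, had 185 and 141 CPM in HACY, against 65 and 79.1 in CCL4 (log2 fold change 1.18, SE 0.17, edgeR adjusted p = 0.00825). Cfd, adipsin, the protease that cuts factor B and is made mainly by fat cells, had 0 counts in all 4 libraries. A count of 0 allows up to 3 counts, 0.148 to 0.170 CPM, for counting error only.

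**Figure D2:**
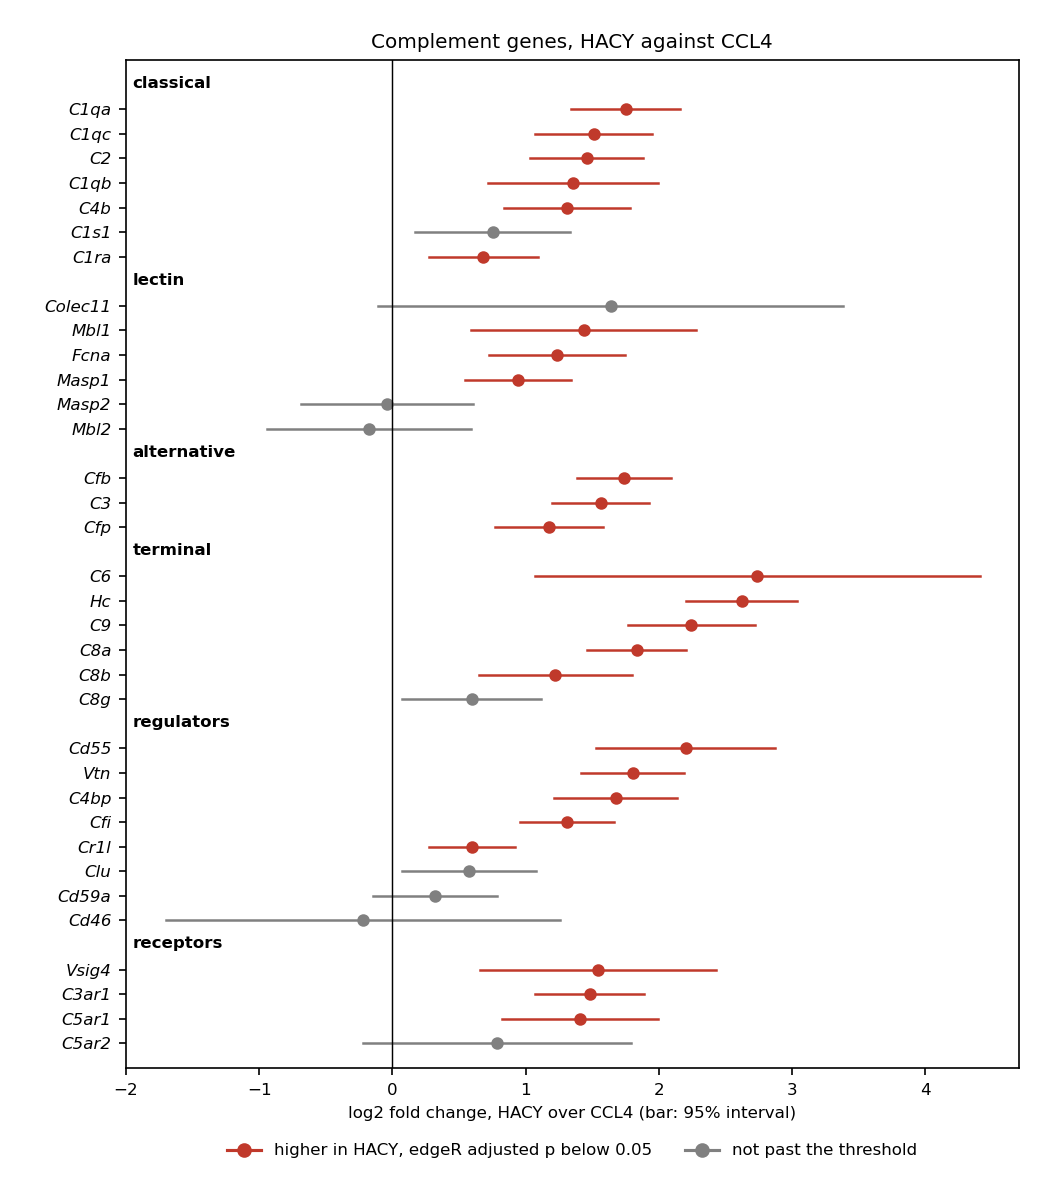
Log2 fold changes of HACY over CCL4 for the 34 tested members, by role, with 95% intervals from the edgeR fit as bars. Red marks the 25 members past an adjusted p of 0.05, all to the right of 0, and grey the 9 that did not pass.

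The terminal pathway had the highest median of the roles, 2.04 on the log2 scale, with 5 of 6 tested members called. Whether the roles differ was not tested. Hc, the gene of C5, whose cleavage starts the membrane attack complex (chromosome 2, 34983331 to 35061438), had 85.7 and 109 CPM in HACY, against 14.8 and 16.8 in CCL4 (log2 fold change 2.62, SE 0.18, edgeR adjusted p = 9.25e-04), 6.16-fold. C9, which polymerises into the pore (chromosome 15, 6445327 to 6498751), had 45 and 61.1 CPM in HACY, against 11.2 and 11.1 in CCL4 (log2 fold change 2.24, SE 0.20, edgeR adjusted p = 0.00179), 4.74-fold. In both genes the HACY libraries held at least 4 times the highest CCL4 value. By FPKM the ratio of Hc to C3 was 0.042 and 0.0439 in HACY and 0.0181 and 0.024 in CCL4, higher in both HACY libraries.

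C8 has alpha, beta and gamma chains, of which alpha and beta were called higher in HACY. C8a had 51.1 and 55.1 CPM in HACY, against 14.9 and 14.9 in CCL4 (log2 fold change 1.83, SE 0.16, edgeR adjusted p = 0.00163). C8b, 11130 bases away on chromosome 4, had 34.8 and 50.3 CPM in HACY, against 21.1 and 15.3 in CCL4 (log2 fold change 1.22, SE 0.24, edgeR adjusted p = 0.0227). C8g, on chromosome 2, had 16.1 and 21.2 CPM in HACY, against 13.2 and 11.4 in CCL4 (log2 fold change 0.60, SE 0.22, edgeR adjusted p = 0.126; 95% interval 0.07 to 1.12). HACY replicate 2 was the highest library for each chain, and the groups did not overlap. In FPKM, the ratio of C8g to C8b was 1.3 and 1.21 in HACY and 1.82 and 2.06 in CCL4, and that of C8a to C8b 1.04 and 0.763 in HACY and 0.514 and 0.7 in CCL4. The C8a value was called in every alternative, and C8b did not pass with HACY replicate 2 left out (adjusted p = 0.101). Whether the changes of the chains differ from each other was not tested.

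C6, which joins C5b first, was low and uneven. It had 34 and 133 counts in HACY, against 11 and 17 in CCL4, or 1.86 and 7.55 CPM in HACY and 0.556 and 0.838 CPM in CCL4 (log2 fold change 2.74, SE 0.71, edgeR adjusted p = 0.0498). Most of the difference lay in HACY replicate 2, and without it the value was 1.41 (adjusted p = 0.393). The call was also lost without CCL4 replicate 1 (0.142) or CCL4 replicate 2 (0.0693), with upper-quartile scaling (0.0574), with limma-voom (0.118), with the rule's own count filter (0.0502) and on both FPKM scales, where its values were 0.59 and 1.78 (adjusted p = 0.144 and 0.0854). C7, the next to join, had 1 and 0 counts in HACY and 0 and 1 in CCL4, so its level was at or under the limit that a count of 0 allows. It was not tested.

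**Figure D3:**
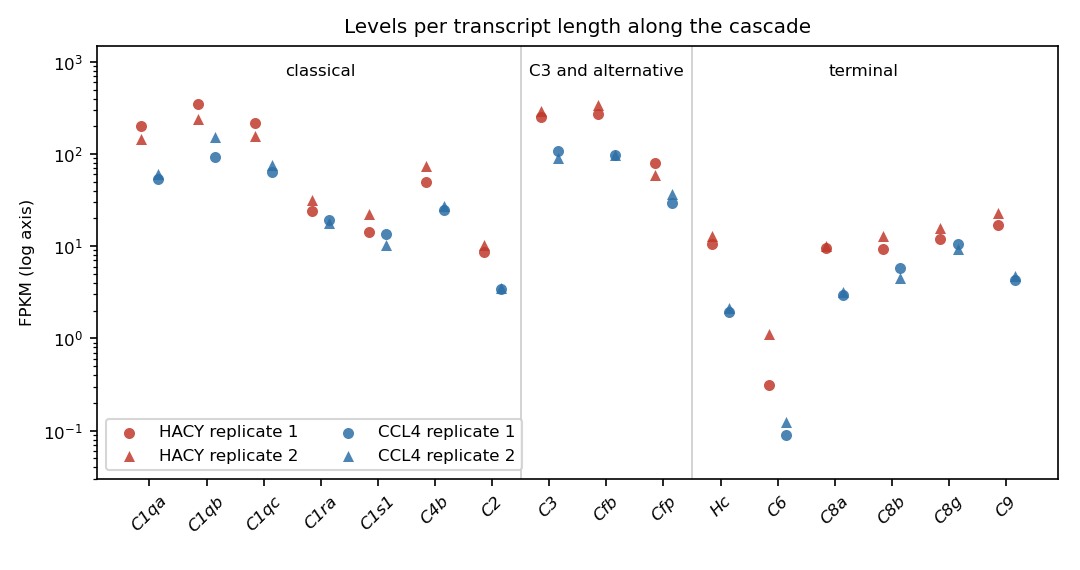
FPKM (log axis) of 16 members in the order in which their proteins act, with HACY libraries in red to the left of CCL4 libraries in blue. C6 lies lowest, below 2 FPKM in each library, and for Hc and C9 the red points stand clear above the blue ones.

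Of the 4 soluble inhibitors, 3 were called higher in HACY. Vtn, vitronectin, which keeps the membrane attack complex from inserting, had 341 and 446 CPM in HACY, against 105 and 120.0 in CCL4 (log2 fold change 1.80, SE 0.16, edgeR adjusted p = 0.00179). C4bp, a cofactor for the breakdown of C4b, had 46.2 and 62.6 CPM in HACY, against 17.9 and 16.2 in CCL4 (log2 fold change 1.67, SE 0.20, edgeR adjusted p = 0.00364). Cfi, the protease that cuts C3b and C4b, had 163 and 209 CPM in HACY, against 76.4 and 73.5 in CCL4 (log2 fold change 1.31, SE 0.15, edgeR adjusted p = 0.00347). Each was called in every alternative tried, and each HACY library held more than 2 times each CCL4 library. Clu, clusterin, a chaperone that also binds terminal complexes, was the most abundant member in every library and took 54.6% and 62.5% of the counts of all members in HACY, and 71.6% and 74.4% in CCL4. It had 8618 and 13505 CPM in HACY, against 7025 and 7830.3 in CCL4 (log2 fold change 0.57, SE 0.21, edgeR adjusted p = 0.124; 95% interval 0.07 to 1.08). Its highest library was HACY replicate 2, and it passed with DESeq2 (0.0361) and without HACY replicate 1 (0.022).

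Membrane regulators, which protect cells from their own complement, were mixed. Cd55, decay-accelerating factor, which splits C3 convertases, had the largest log2 fold change among them, with 156 and 102 CPM in HACY, against 21.4 and 34.7 in CCL4 (log2 fold change 2.20, SE 0.29, edgeR adjusted p = 0.00529), 4.6-fold. Cr1l, the rodent regulator Crry, had 86.1 and 86.6 CPM in HACY, against 61.6 and 52.7 in CCL4 (log2 fold change 0.60, SE 0.14, edgeR adjusted p = 0.0354). Cd59a, an inhibitor of the pore, had 16.3 and 18.2 CPM in HACY, against 13 and 14.6 in CCL4 (log2 fold change 0.32, SE 0.20, edgeR adjusted p = 0.325; 95% interval -0.15 to 0.78). Cd46, in mice largely a gene of the testis, had 17 and 7 counts in HACY and 20 and 11 in CCL4 (log2 fold change -0.22, SE 0.63, edgeR adjusted p = 0.854; 95% interval -1.70 to 1.26). HACY replicate 1 was the highest library for Cd55, and the HACY libraries of Cr1l were nearly equal. Cr1l did not pass with HACY replicate 1 (0.197) or HACY replicate 2 (0.19) left out, by library size alone (0.0816) and on both FPKM scales (0.0582 and 0.055). Cd55 and Cd59a have near copies in the mouse genome, so their counts are uncertain between the copies.

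Of the 4 receptors of complement fragments, 3 were called higher in HACY. C3ar1, the receptor of the anaphylatoxin C3a, had 295 and 211 CPM in HACY, against 91.9 and 89.5 in CCL4 (log2 fold change 1.48, SE 0.17, edgeR adjusted p = 0.00365). C5ar1, the main receptor of C5a on myeloid cells, had 72.5 and 56 CPM in HACY, against 18.6 and 29.8 in CCL4 (log2 fold change 1.41, SE 0.25, edgeR adjusted p = 0.0152). Both were called in every alternative. Vsig4, the Kupffer cell receptor that takes up particles coated with C3 fragments, had 65.8 and 47.3 CPM in HACY, against 27.3 and 11.6 in CCL4 (log2 fold change 1.54, SE 0.38, edgeR adjusted p = 0.0428). For each of these receptors HACY replicate 1 was the highest library. Vsig4 did not pass with HACY replicate 1 (0.281) or HACY replicate 2 (0.147) left out, with no filter on low counts (0.0964) and on both FPKM scales (0.0698 and 0.0614). C5ar2, the second C5a receptor, had 9.39 and 6.87 CPM in HACY, against 2.78 and 6.65 in CCL4 (log2 fold change 0.78, SE 0.43, edgeR adjusted p = 0.267; 95% interval -0.22 to 1.79). CCL4 replicate 2 was close to the HACY libraries there, and without it the value was 1.55 (0.0258).

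Several members are neighbours in the genome (GRCm38). Neighbours did not always share a call, but whether their log2 fold changes differ was not tested. Cd46 and Cr1l lie 5132 bases apart on chromosome 1, and Cr1l alone was called. Cd46 had few counts, and its 95% interval (-1.70 to 1.26) holds the Cr1l value of 0.60. C5ar2 and C5ar1 lie 2588 bases apart on chromosome 7, and C5ar1 alone was called. The interval of C5ar2 (-0.22 to 1.79) holds the C5ar1 value of 1.41. C4b, Cfb and C2 lie in that order on chromosome 17, and all were called, as were the 3 C1q genes. Besides Masp2, and the readthrough gene at Cfb and C2, exons of C2, C1s1, Fcna, Hc, Cd55 and Cd46 share bases with an annotated gene on the opposite strand. Those of C5ar2 share bases with an annotated small nuclear RNA gene on the same strand, which no strand setting can separate. C1ra and C1s1 have close copies. The counts of all these genes are uncertain to that extent.

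Hepatocyte-made and myeloid-made members had like medians between the groups but split between the replicates of HACY. The 21 members that hepatocytes mainly make had a median log2 fold change of 1.44, with 15 called higher, and the 9 that macrophages and other myeloid cells mainly make had 1.41, with 8 called. The other 6 members (Cd46, Cd55, Cd59a, Cr1l, C7 and Cfd) were placed in neither class. Hepatocyte-made members were higher in HACY replicate 2 than in HACY replicate 1 in 21 of 21 cases, with a median log2 ratio of 0.44 (0.07 to 2.02). Myeloid-made members were lower in HACY replicate 2 than in HACY replicate 1 in 9 of 9 cases, with a median log2 ratio of -0.45 (-0.50 to -0.14). In CCL4, replicate 2 was the higher for 10 of 21 hepatocyte-made and 6 of 9 myeloid-made members, with medians of -0.01 and 0.28. Over all genes tested, the median log2 ratio of HACY replicate 2 over replicate 1 was -0.00048, with a small constant added to each CPM. The classes are presumed main sources, and the lists were chosen with earlier results of these data known. Genes read from the same libraries are not independent cases. This order compares single libraries, and it was not tested.

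Markers of both cell types moved with the members. The hepatocyte markers had a median log2 fold change of 1.83 between the groups, with 10 of 14 called higher, and were higher in HACY replicate 2 than in HACY replicate 1 in 12 of 14 cases. Macrophage and Kupffer cell markers had a median of 1.61, with 9 of 12 tested called, and were lower in HACY replicate 2 in 10 of 12 cases. Of all genes tested, 8.19% were called higher. The replicate order was not particular to macrophages. Sinusoidal endothelium markers were lower in HACY replicate 2 in 6 of 7 cases and B cell markers in 5 of 6. Cholangiocyte markers were so in 4 of 7, stellate cell and fibroblast markers in 4 of 8, neutrophil markers in 2 of 7 and erythroid markers in 1 of 3. The part of these cell types in the complement values was not tested.

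**Figure D4:**
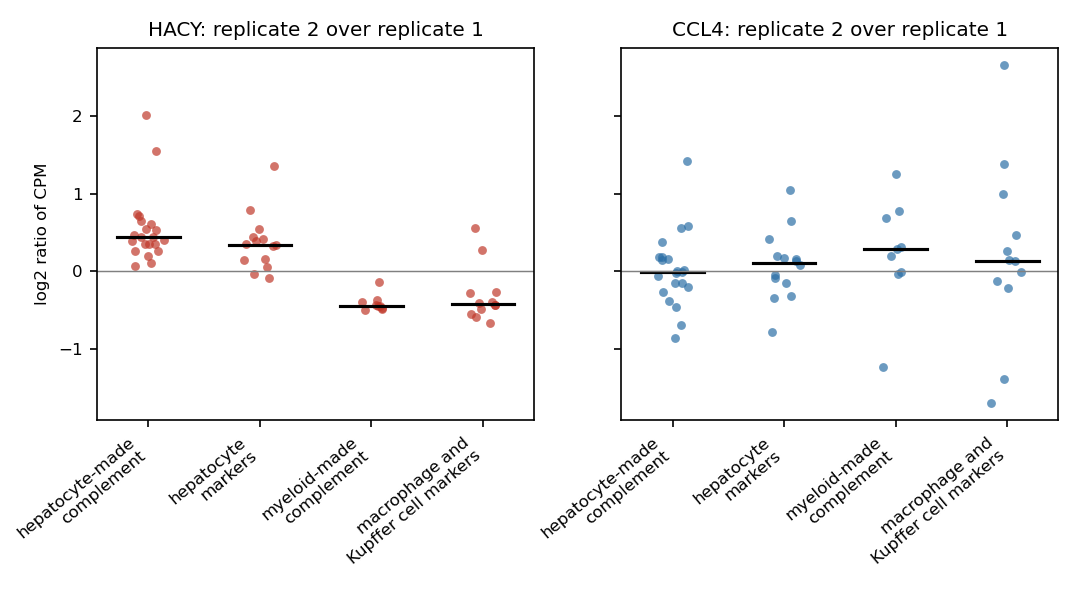
Log2 ratio of CPM in replicate 2 over replicate 1, in HACY (left, red) and CCL4 (right, blue), for hepatocyte-made complement members, hepatocyte markers, myeloid-made members, and macrophage and Kupffer cell markers. Each point is a gene and black lines are medians; in HACY all 21 hepatocyte-made members lie above 0 and all 9 myeloid-made members below.

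Other genes of the pathway, from a list of 32, were read from the same fit. Of the 23 tested, 11 were higher in HACY and 0 lower (0 lower at an unadjusted p below 0.05 and 0 by DESeq2), with a median of 0.73. Of all genes tested, 8.19% were higher and 3.54% lower. A count of 0 lower among 23 cannot be told from that share. The largest log2 fold change was that of Apcs, serum amyloid P, a pentraxin that binds C1q, with 41.1 and 37.9 CPM in HACY, against 3.29 and 5.57 in CCL4 (log2 fold change 3.15, SE 0.27, edgeR adjusted p = 0.00163), 8.89-fold. Itgb2 and Itgax, chains of the complement receptor integrins of myeloid cells, had log2 fold changes of 1.24 (SE 0.19, adjusted p = 0.00973) and 1.84 (SE 0.29, adjusted p = 0.0098). Serping1, the inhibitor of C1r, C1s and the MASP proteases, had 227 and 293 CPM in HACY, against 161 and 155 in CCL4 (log2 fold change 0.72, SE 0.15, edgeR adjusted p = 0.0259). Cpb2, a carboxypeptidase that trims C3a and C5a, had 0.73 (SE 0.16, adjusted p = 0.0269), and Crp, a C1q-binding pentraxin, 1.44 (SE 0.31, adjusted p = 0.0276).

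Several of these calls were lost with a library left out, which leaves 1 library in a group. Serping1 was lost without HACY replicate 2 (0.199) or CCL4 replicate 1 (0.0512) and on both FPKM scales (0.0583 and 0.0521), and Cpb2 without HACY replicate 2 (0.209). Crp did not pass with HACY replicate 1 (0.232), HACY replicate 2 (0.0597) or CCL4 replicate 1 (0.0545) left out. On log2(FPKM + 1) the value of Itgax was 0.96. Itgam, the alpha chain of complement receptor 3, did not pass (1.17, SE 0.36, adjusted p = 0.0824), and without CCL4 replicate 2 had 1.93 (0.00359). C1qbp, a mitochondrial protein that binds C1q heads, had 184 and 205 CPM in HACY, against 211 and 198 in CCL4 (log2 fold change -0.08, SE 0.12, edgeR adjusted p = 0.725). C1rl, a C1r-like protease, had 20.9 and 27.5 CPM in HACY and 26.3 and 22.4 in CCL4 (log2 fold change -0.01, SE 0.20, edgeR adjusted p = 0.98).

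Of 23 tested genes of the cytokines, receptors and factors known to act on complement transcription, 6 were higher and 2 lower in HACY (median 0.38). The shares of all genes tested were 8.19% higher and 3.54% lower. A count of 2 lower genes among 23 is too small to tell from that share. Spi1, which encodes PU.1, a transcription factor of macrophages, had 82.7 and 55.6 CPM in HACY, against 22 and 30.9 in CCL4 (log2 fold change 1.39, SE 0.24, edgeR adjusted p = 0.0149). Nr1h3, LXR alpha, had a log2 fold change of 1.01 (SE 0.15, adjusted p = 0.00782), Tnf 1.35 (SE 0.27, adjusted p = 0.0226) and Ifngr1 0.63 (SE 0.16, adjusted p = 0.0478). The 2 lower genes encode the liver factors C/EBP alpha and beta: Cebpa had 38.9 and 32.5 CPM in HACY, against 66.5 and 66.3 in CCL4 (log2 fold change -0.90, SE 0.15, edgeR adjusted p = 0.013), and Cebpb had 45 and 37.9 CPM in HACY, against 69.3 and 176 in CCL4 (log2 fold change -1.56, SE 0.39, edgeR adjusted p = 0.0449).

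Among these, CCL4 replicate 2 alone carried the high Cebpb value, and without it the log2 fold change was -0.74 (0.0204). Cebpb did not pass with HACY replicate 1 (0.415) or HACY replicate 2 (0.44) left out, nor with DESeq2 (0.0724), limma-voom (0.0836), no filter (0.155), the stricter filter (0.0518) and both FPKM scales (0.0636 and 0.053). Cebpa was lost without HACY replicate 2 (0.1), Tnf without HACY replicate 1 (0.191) or CCL4 replicate 1 (0.0504), and Nr1h3 without HACY replicate 1 (0.0555). Ifngr1 was lost without any one library, at adjusted p-values of 0.0517 to 0.389. Stat3, which carries the interleukin 6 signal for acute phase genes, had 206 and 216 CPM in HACY and 151 and 174 in CCL4 (log2 fold change 0.38, SE 0.13, edgeR adjusted p = 0.0966), and without CCL4 replicate 2 had 0.48 (0.0316). Hnf4a, a hepatocyte transcription factor, had a log2 fold change of -0.04 (SE 0.26, adjusted p = 0.935).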

How the data were processed

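Per the labels' protocols, total RNA was isolated from the CD24+ cells and sequenced as paired ends from a stranded mRNA kit. Each of the 4 libraries has a deposited table with raw read counts and FPKM (scaled by the authors to transcript length and library size) per symbol, per the file headers. Per the submitters' processing notes, the tools were HTSeq, Cufflinks, HISAT2, Trimmomatic and DESeq, and the build mm10. Tool versions, annotation and strand setting: not given in the sources used here.

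Counts were tested with edgeR 4.0.16 (R 4.3.3): filterByExpr (minimum count 10, minimum total 15), TMM, robust quasi-likelihood fit with treatment as the only term, two-sided, Benjamini-Hochberg over 13428 genes, threshold 0.05. Log2 fold changes are HACY over CCL4, standard errors are the fold change over the square root of F, and intervals (95%) use the fit's degrees of freedom. The biological coefficient of variation was 16.5%. Replicates were not copies of each other (chi-square per degree of freedom 19.0 in HACY and 34.0 in CCL4). No batch is given. DESeq2 1.42.0 and limma 3.58.1 were alternatives, beside other scalings, filters, a replicate block, FPKM and each library left out. With 1 library left in a group, that library is assumed to vary like the other group.

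Locations are those of GENCODE M21 (GRCm38, the assembly of mm10), promoters those of RefSeq. Where several starts were listed the first was used. The members and lists were chosen with earlier results of these data known. Every member is accounted for; other genes were named by smallest p, up to 8 a list and up to 4 that did not pass, and some genes so chosen are not reported here.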

Additional observations from a re-analysis of the deposited data

How the results depend on the processing

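The count of members called higher in HACY was 25, and 19 to 28 under the scalings, tests, filters and blocks tried and 17 to 24 with 1 library left out; no member was called lower under any of them and no called member changed direction. HACY replicate 2 mattered most: 8 member calls were lost without it, 5 when HACY replicate 1 was left out, 3 for CCL4 replicate 1 and 2 for CCL4 replicate 2. Leaving out 1 library gave 0 to 3 lectin members, 3 to 5 terminal and 2 to 4 receptor members higher, and 1 lectin member was higher on log2(FPKM + 0.1). Over all genes, 1100 were higher and 476 lower; leaving out 1 library gave 530 to 1840 higher and 99 to 1207 lower. FPKM gave 643 and 709 higher with pseudocounts of 1 and 0.1, library size alone 1355 lower, with a median of all genes of -0.18 on the log2 scale and 856 higher, and DESeq2 744 lower. Of the other complement genes 6 to 14 were higher with 1 library left out, and of the upstream genes 3 to 10 were higher and 0 to 3 lower. Upstream genes lower were 1 with DESeq2, limma-voom, no filter, the stricter filter, the replicate block and both FPKM scales.

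The replicate numbers are only names. A replicate block on them ended the calls of C1qb, C1ra and Mbl1 and left 7 of the other complement genes higher. The deviations of HACY replicate 1 and CCL4 replicate 1 correlated at -0.12 across genes, and the crossed pairing, added after the data were seen, gave 1843 genes higher and 1245 lower, 28 members higher and 11 upstream genes higher. Depth limited Colec11, Cd46, C6 and C7, and intervals on counts cover counting error only.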
